A study of Mus musculus with 4 samples.

Results

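The glycolysis and hypoxia response genes described here are 35 genes picked by name, out of the 55228 gene names in the deposited count table. They comprise 2 glucose transporters, 16 genes of the glycolytic chain from hexokinase to lactate dehydrogenase, 4 regulators of glycolytic flux and 1 lactate exporter. The other members are 4 genes of the oxygen sensor itself and 8 targets of hypoxia-inducible factor (HIF) whose main role lies outside glycolysis. All 35 were in the table and all 35 passed the filter on low counts. The RNA was total RNA of E17.5 rib cartilage cells on the C57BL/6 background, and each genotype, wild type (WT) and Trim28 knockout (Trim28 KO), has 2 libraries. TRIM28 is a protein of chromatin silencing that KRAB zinc finger factors recruit. The labels give no agent or treatment and do not say how the knockout was made, in which cells Trim28 was deleted, or whether separate embryos gave the libraries. P-values therefore measure the spread between these libraries, which may be technical.

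Glycolysis splits glucose into pyruvate and, when lactate dehydrogenase follows, yields ATP without oxygen. HIF is a pair of proteins whose alpha subunit (HIF1A or EPAS1) is hydroxylated and degraded while oxygen is present, and which otherwise binds DNA and raises the transcription of most glycolytic genes together with genes of vascular tone, mitophagy and chromatin. Fetal cartilage has no blood vessels, and HIF1A is needed there for chondrocyte survival. Because HIF1A is controlled mainly through protein stability, its transcript level does not report its activity.

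HIF binds a short core, ACGTG or GCGTG, that many members carry just before the start site. Both strings were searched on both strands in the 250 bases before each start in RefSeq's promoters of GRCm38.p6, joining overlapping matches. The table matched 31 of the 35 genes, with 48 start sites. Windows of nearby start sites of the same gene can overlap, as in Aldoa, Pfkm and Eno1, so a core can be counted more than once. A core stood in 77.1% of those 48 windows, in 53.9% of the windows of all genes tested and in 38.6% of all windows in the table. It stood in 80.0% of the windows of members called higher in Trim28 KO (16 of 20) and in 75.0% of the windows of members not called (21 of 28). The member windows were also richer in G and C, with a median of 61.0% against 59.6% in tested genes and 52.4% in all. The sequences below show 3 members that rose in Trim28 KO (Slc16a3, Pfkp and Pgk1) and then 3 that were not called (Bnip3, Ankrd37 and Adm). They show that the core occurs in genes of either kind. Each is the stretch of the window that lies outside annotated exons, 5′ to 3′, with the cores in capitals (a core on the other strand reads CACGT or CACGC).
Slc16a3, chr11:120948817-120949052, plus strand: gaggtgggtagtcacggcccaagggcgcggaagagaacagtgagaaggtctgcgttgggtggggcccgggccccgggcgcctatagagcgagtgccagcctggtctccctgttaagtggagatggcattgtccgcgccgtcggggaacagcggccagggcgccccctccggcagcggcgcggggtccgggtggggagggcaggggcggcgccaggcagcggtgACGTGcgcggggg
Pfkp, chr13:6648778-6649021, minus strand: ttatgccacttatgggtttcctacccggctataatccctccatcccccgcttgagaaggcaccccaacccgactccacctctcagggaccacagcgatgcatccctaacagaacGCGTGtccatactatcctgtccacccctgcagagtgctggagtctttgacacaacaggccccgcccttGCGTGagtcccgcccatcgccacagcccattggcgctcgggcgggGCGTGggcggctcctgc
Pgk1, chrX:106186850-106187099, plus strand: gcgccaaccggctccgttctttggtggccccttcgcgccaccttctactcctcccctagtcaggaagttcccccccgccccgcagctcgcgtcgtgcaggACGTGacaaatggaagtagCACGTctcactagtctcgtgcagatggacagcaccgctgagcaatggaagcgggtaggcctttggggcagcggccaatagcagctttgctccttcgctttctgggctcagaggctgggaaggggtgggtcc
Bnip3, chr7:138909520-138909756, minus strand: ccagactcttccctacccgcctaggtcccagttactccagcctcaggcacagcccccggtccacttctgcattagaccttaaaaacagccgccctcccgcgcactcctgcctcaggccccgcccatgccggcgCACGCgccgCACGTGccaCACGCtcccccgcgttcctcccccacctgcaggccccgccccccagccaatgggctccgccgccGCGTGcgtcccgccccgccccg
Ankrd37, chr8:45999868-46000100, minus strand: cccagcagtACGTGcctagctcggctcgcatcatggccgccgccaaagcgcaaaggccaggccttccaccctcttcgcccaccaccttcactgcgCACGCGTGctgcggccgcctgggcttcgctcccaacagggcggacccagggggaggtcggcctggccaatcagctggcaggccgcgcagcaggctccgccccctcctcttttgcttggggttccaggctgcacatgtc
Adm, chr7:110627407-110627656, plus strand: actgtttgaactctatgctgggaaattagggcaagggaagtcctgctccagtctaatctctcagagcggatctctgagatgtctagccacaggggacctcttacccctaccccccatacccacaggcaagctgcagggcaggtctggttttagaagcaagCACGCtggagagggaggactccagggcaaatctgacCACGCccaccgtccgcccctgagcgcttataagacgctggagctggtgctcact
Slc16a3 and Ankrd37 have 1 more core each, 14 and 6 bases before the start site, in annotated exon sequence that is not shown. The Pgk1 stretch holds 2 cores that begin 150 and 131 bases before the start site. Bnip3, which lay just outside the threshold and was not called (edgeR adjusted p = 0.0515), holds 4 matches within 117 bases of its start. The second of these reads CACGTG and so matches on both strands. A match is a description of these letters and not a measured binding site.

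Total counts ran from 18616896 to 20082123 per library. Of these, 3 counts equal 0.151 to 0.159 CPM (counts-per-million after TMM scaling, the trimmed mean of M-values). Trim28 stood at 225 and 186 CPM in WT and at 51.1 and 54.5 CPM in Trim28 KO (-1.96 ± 0.20 as a log2 fold change with its SE, n = 2 libraries in either group, edgeR adjusted p = 2.28e-07). Cartilage markers were abundant in every library, led by Col2a1 at 5.64% to 7.47% of the counts, and 2 of 16 were lower and none higher in Trim28 KO by edgeR (1 higher at an unadjusted p under 0.05, 1 by DESeq2). Markers of other cell types moved as well. Of 12 macrophage markers 8 rose, and their summed level was 149 and 151 CPM in WT and 480 and 283 CPM in Trim28 KO. Of 9 tested osteoclast markers 8 fell (sums of 1112 and 912 CPM against 275 and 286 CPM), and of 7 tested erythroid markers 6 fell (255 and 349.6 CPM against 76.1 and 82.5 CPM). Of 5 tested neutrophil markers 2 fell (2.76 and 20.5 CPM against 1.24 and 0.803 CPM), of 9 neural and Schwann cell markers 4 fell and 1 rose (566 and 542 CPM against 659 and 558 CPM), and of 10 endothelial markers none was called by edgeR (626 and 528 CPM against 457 and 524 CPM, 1 lower at an unadjusted p under 0.05, 0 by DESeq2). Muscle markers followed single libraries, with summed levels of 687 and 922 CPM in WT and 1381 and 529.7 CPM in Trim28 KO, and 1 of 15 rose and 1 fell. The neuronal marker Snap25 had 0 counts in all 4 libraries, Tnnc2 of muscle and Rhag of red cells had 0 in 3 of 4, and 8 other markers had 0 in 1 or 2. The part of these cells in the values below was not tested, and in bulk RNA fewer cells of a type and less RNA per cell cannot be told apart.

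The comparison asked which of these genes differ between Trim28 KO and WT rib cartilage cells. Of the 16 glycolytic enzymes 9 rose, together with a glucose importer and the lactate exporter, while 1 of the 8 HIF targets outside glycolysis rose. Among 32 other known HIF targets that are not members, 12 rose and 3 fell. The 35 genes took 0.571% and 0.620% of all counts in WT and 1.03% and 0.995% in Trim28 KO. At an adjusted p under 0.05 over all 16639 genes tested, 15 of the 35 were called higher, none lower and 20 were not called. Over all genes tested, 8.64% were called higher and 8.77% lower. The members were chosen with earlier results of these data known, so this contrast is not independent of the data. None was lower at an unadjusted p under 0.05 either, and DESeq2 called 18 higher (7.33% of all genes) and 0 lower. The median log2 fold change of the 35 was 0.53, against -0.02 over all genes tested, and 30 of 35 lay above 0. In 26 of the 35 both Trim28 KO libraries lay above both WT libraries, which held for 28.3% of all genes tested, and in 2 (Epas1 and Bnip3l) both lay below, which held for 29.7% of all genes. Groups of 2 libraries that do not overlap were thus common, and such a gap alone is weak evidence of a difference. The plot of CPM by gene and library shows these values, and the plot of log2 fold changes the estimates with their errors.

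**Figure D1:**
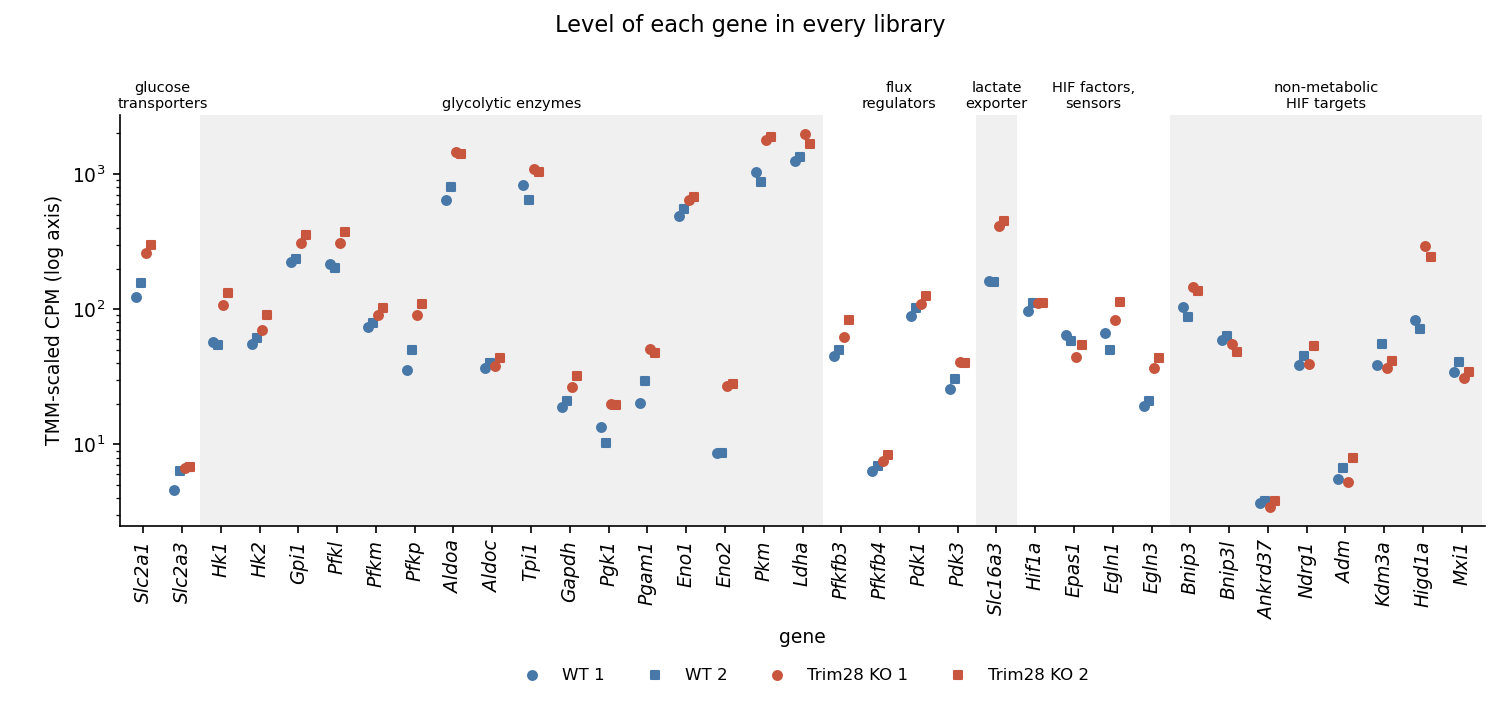
TMM-scaled CPM of the 35 genes (log axis) in WT 1, WT 2, Trim28 KO 1 and Trim28 KO 2, grouped by role; each point is 1 library. Both Trim28 KO points lie above both WT points in 26 genes, among them 15 of the 16 enzymes, while 5 of the 8 non-metabolic HIF targets overlap. Over all genes tested, 28.3% had both Trim28 KO libraries above both WT libraries and 6993 of 16639 overlapped.

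**Figure D2:**
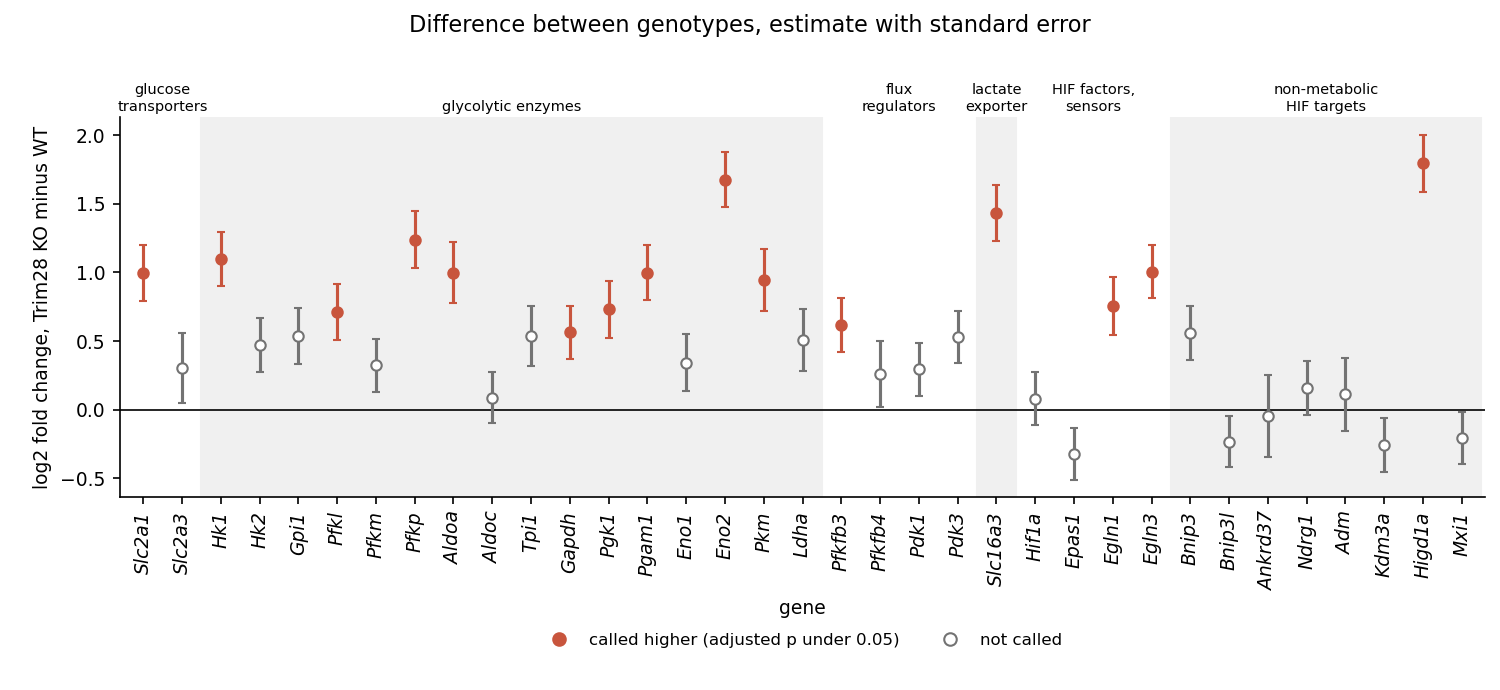
Log2 fold change of Trim28 KO minus WT for each of the 35 genes, with bars of 1 standard error; filled points are called higher at an adjusted p under 0.05. All 16 enzymes lie above 0 and 9 are filled, whereas 1 of the 8 non-metabolic HIF targets, Higd1a, is filled.

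Transport at either end of the pathway was higher. Slc2a1, the main glucose importer GLUT1, stood at 124 and 156 CPM in WT and at 259 and 299 CPM in Trim28 KO. The groups did not overlap, and the rise was 1.99-fold (log2 fold change of 0.996 ± 0.21, adjusted p = 0.00133 by edgeR). Slc2a3, the high-affinity importer GLUT3 of neurons and blood cells, was scarce at 4.62, 6.36, 6.75 and 6.82 CPM in the order WT 1, WT 2, Trim28 KO 1 and Trim28 KO 2, and was not called (0.30 ± 0.26, adjusted p = 0.468). Per kilobase of exon, Slc2a1 made up 98.1% to 98.9% of the pair in all 4 libraries. Slc16a3, the lactate exporter MCT4, had the third largest log2 fold change among the 35. It went from 161 and 159 CPM to 410.3 and 451 CPM, a 2.70-fold rise (1.43 ± 0.20, adjusted p = 2.05e-05), with WT libraries that differed far less from each other than from either Trim28 KO library.

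All 16 enzymes had log2 fold changes above 0, from 0.09 to 1.67 with a median of 0.64, and 9 were called higher by edgeR (13 at an unadjusted p under 0.05, 11 by DESeq2) and 0 lower (0 at an unadjusted p under 0.05, 0 by DESeq2). Summed over the 16, the level was 5012 and 4982 CPM in WT and 8125 and 8034 CPM in Trim28 KO. Every step of the chain except the isomerase reactions of Gpi1 and Tpi1 and the last step, Ldha, had at least 1 called gene among these 16. Ldhb, a lactate dehydrogenase gene outside the 16, was called higher (0.60 ± 0.20, edgeR adjusted p = 0.0386) and is described below.

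In the upper, ATP-consuming part, at least 1 gene of each kinase step was called. Hk1, the constitutive hexokinase, rose from 57.2 and 54.1 CPM to 107 and 131 CPM (1.10 ± 0.20, adjusted p = 0.000316). Hk2, its HIF-inducible relative, stood at 54.96 and 61.1 CPM in WT and at 70.4 and 90.4 CPM in Trim28 KO. The genotypes did not overlap for Hk2, but the difference was not called (0.47 ± 0.20, adjusted p = 0.103). Pfkp, the platelet-type phosphofructokinase, stood at 35.4 and 49.6 CPM in WT and at 90.7 and 109.9 CPM in Trim28 KO, a 2.36-fold rise (1.24 ± 0.21, adjusted p = 1.47e-04). Pfkl, the liver type and the most abundant of the 3 phosphofructokinases per kilobase, rose less, from 215 and 202 CPM to 310.4 and 372 CPM (0.71 ± 0.20, adjusted p = 0.0172). Its call was lost without WT 2 (adjusted p = 0.0565) and without Trim28 KO 2 (adjusted p = 0.141). Pfkm, the muscle type, stood at 73.5 and 79.8 CPM against 90.1 and 102 CPM and was not called (0.32 ± 0.19, adjusted p = 0.274).

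Aldoa, the aldolase of most tissues, stood at 644 and 798 CPM in WT and at 1464 and 1416 CPM in Trim28 KO (0.998 ± 0.22, adjusted p = 0.00255). Aldoc, the brain aldolase, had overlapping groups at 36.9, 40.2, 38.1 and 43.8 CPM, in the same library order as above (0.09 ± 0.18, adjusted p = 0.798). The isomerase genes Gpi1 (222 and 236 CPM against 309 and 354 CPM, adjusted p = 0.0716) and Tpi1 (831 and 640.3 CPM against 1092 and 1043 CPM, adjusted p = 0.0986) did not overlap between genotypes and were not called, with log2 fold changes of 0.53 ± 0.20 and 0.54 ± 0.22. DESeq2 called both.

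In the lower, ATP-yielding part, the largest log2 fold change of all enzymes was in a scarce gene. Eno2, the enolase of neurons and also a HIF target, stood at 8.66 and 8.64 CPM in WT and at 27.1 and 28.1 CPM in Trim28 KO, a 3.19-fold rise (1.67 ± 0.20, adjusted p = 1.89e-06). In the same libraries 4 of 9 neural and Schwann cell markers fell and 1 rose (S100b, which chondrocytes also express, adjusted p = 0.00923), with summed levels of 566 and 542 CPM in WT and 659 and 558 CPM in Trim28 KO, and the part of such cells in the Eno2 level was not tested. Eno1, the common enolase, stood at 494 and 548 CPM against 641 and 679.8 CPM and was not called (0.34 ± 0.21, adjusted p = 0.285). Pgam1, the phosphoglycerate mutase, rose from 20.2 and 29.2 CPM to 51.0 and 47.7 CPM (0.996 ± 0.20, adjusted p = 9.65e-04). Pkm, which makes pyruvate, rose from 1043 and 875 CPM to 1802 and 1889.9 CPM (0.94 ± 0.22, adjusted p = 0.00441), a call lost without WT 2 (adjusted p = 0.0557). Ldha, which turns pyruvate into lactate and had the highest WT level of the 35 per kilobase (389 ± 18.1 RPKM, SD, n = 2, where RPKM is CPM per kilobase of exon), stood at 1244 and 1329 CPM against 1985 and 1675 CPM. Its groups did not overlap, but it was not called (0.51 ± 0.23, adjusted p = 0.128), whereas DESeq2 called it (adjusted p = 0.0414).

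Gapdh and Pgk1, which catalyse the first oxidation and the first ATP-yielding step, rose in the counted reads, from 18.8 and 20.8 CPM to 26.6 and 31.9 CPM (0.56 ± 0.19, adjusted p = 0.0465) and from 13.5 and 10.2 CPM to 19.8 and 19.5 CPM (0.73 ± 0.21, adjusted p = 0.0159). Both lost their calls when some libraries were left out, with log2 fold changes of 0.43 to 0.70 for Gapdh and 0.57 to 0.97 for Pgk1 over the 4 libraries left out in turn. For Gapdh the adjusted p was 0.134 when WT 1 was left out, 0.0872 when Trim28 KO 1 was and 0.295 when Trim28 KO 2 was, and 0.0777 by DESeq2. For Pgk1 it was 0.114 when WT 2 was left out, 0.110 when Trim28 KO 1 was and 0.0844 when Trim28 KO 2 was. Their levels were far below those of the neighbouring steps, at 4.79 and 5.28 RPKM in WT against 267 RPKM for Tpi1 and 192 RPKM for Pkm. The cause of these low levels was not tested. The counting command did not ask for reads that map to several places, and of the 50-base stretches in their annotated transcripts 25.1% (Gapdh) and 53.9% (Pgk1) also occur in transcripts of other genes, pseudogenes included. The share was 36.2% for Pgam1, 26.0% for Eno1, 25.8% for Pkm, 15.8% for Gpi1, 9.26% for Ldha and at most 8.83% in the other 9 enzymes, so the levels of the first 5 of these genes are uncertain. Among the 8 enzymes outside a group often copied as pseudogenes (Hk1, Hk2, Gpi1, Pfkl, Pfkm, Pfkp, Aldoc and Eno2), 4 were called higher and the median log2 fold change was 0.62.

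The balance between isozymes also differed between genotypes. These shares compare genes within a library and so do not depend on the scaling between libraries. They cover the listed members alone and leave out relatives such as Hk3, Pdk2, Pdk4 and Eno3. Eno3 stood above Eno2, at 13.3 and 18.5 RPKM in WT and 32.1 and 14.1 RPKM in Trim28 KO. Hk1 made up 42.2% and 38.3% of Hk1 and Hk2 reads per kilobase in WT and 51.6% and 50.3% in Trim28 KO. Eno2 went from 1.97% and 1.77% of Eno1 and Eno2 together to 4.61% and 4.51%. The level of Eno1 in that pair is uncertain, as stated above. Pfkp went from 4.65% and 6.40% of phosphofructokinase to 8.44% and 8.70%. Pfkm, by contrast, took 38.7% and 41.3% of phosphofructokinase in WT and 33.6% and 32.3% in Trim28 KO, and Aldoc 6.11% and 5.41% of aldolase against 2.87% and 3.39%. In none of these 5 shares did the genotypes overlap. No share was tested. With 2 libraries against 2 a 2-sided exact permutation test cannot give a p below 0.333, and the spread within a genotype (SD) was 0.108 points for Eno2, 0.889 for Pfkp and 2.04 for Hk1, beside differences of 2.69, 3.04 and 10.7 points. Exon lengths cover every annotated exon of a gene, and without the correction for length Pfkp took 10.9% and 15.0% in WT and 18.5% and 18.8% in Trim28 KO.

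**Figure D3:**
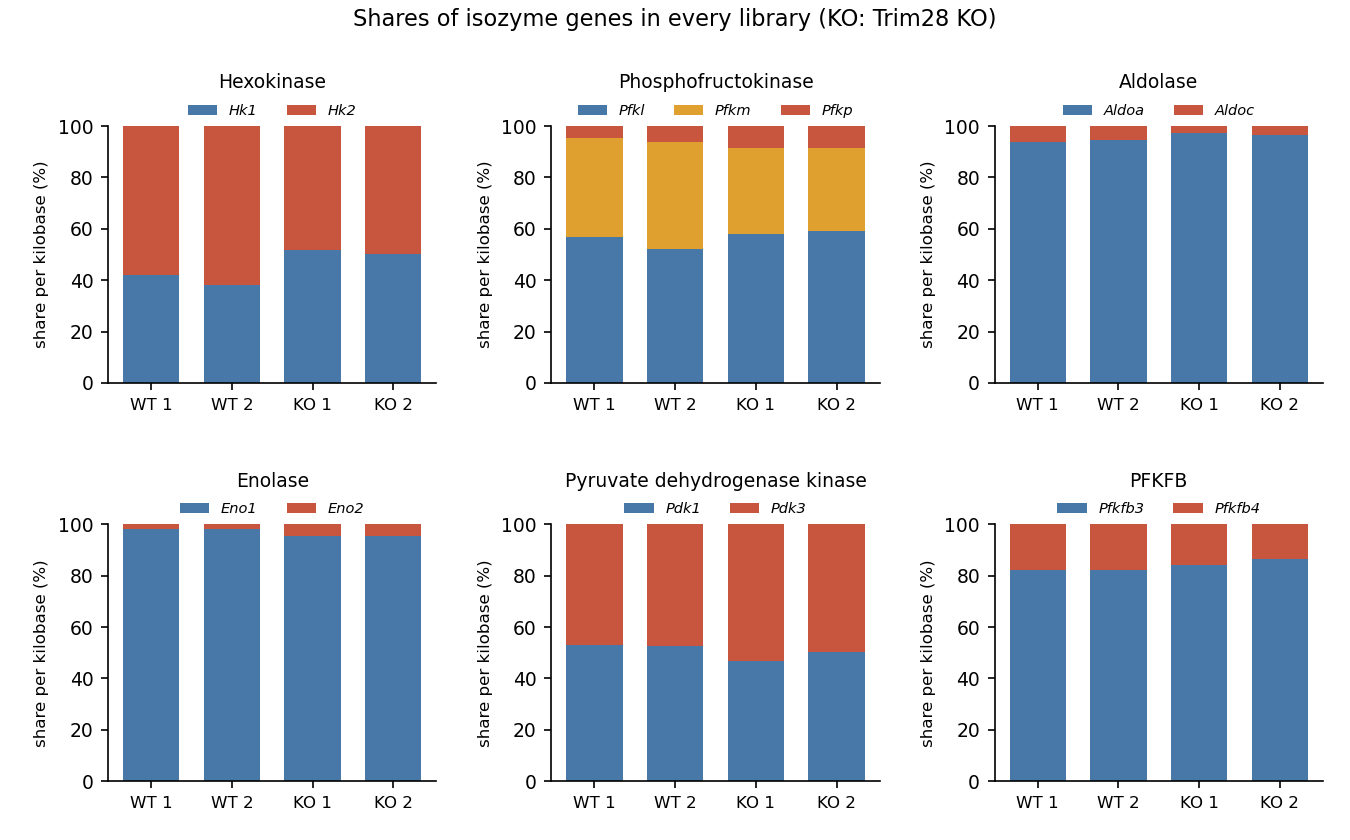
Share of each isozyme gene in each of the 4 libraries, for 6 families. Shares are percent of the reads per kilobase of exon of the members shown. Other genes of a family, such as Eno3, are left out. Each bar is 1 library and sums to 100%. The Eno2 share is 1.77% and 1.97% in WT and 4.51% and 4.61% in Trim28 KO. On this scale the Hk1 share lies above 50% in the Trim28 KO libraries alone. Without the length correction Hk1 takes 51.0% and 47.0% in WT and 60.4% and 59.2% in Trim28 KO.

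The regulators of flux moved less. Pfkfb3, which makes the allosteric activator of phosphofructokinase, stood at 45.1 and 49.6 CPM in WT and at 62.8 and 82.6 CPM in Trim28 KO (0.62 ± 0.19, adjusted p = 0.0292). Its call was lost without WT 1 (adjusted p = 0.0761) and without Trim28 KO 2 (adjusted p = 0.297). Pdk1 and Pdk3, kinases that shut pyruvate dehydrogenase and so keep pyruvate out of the mitochondrion, stood at 89.1 and 102 CPM against 109 and 124 CPM and at 25.8 and 30.3 CPM against 40.7 and 40.3 CPM. Neither was called (0.29 ± 0.19, adjusted p = 0.334, and 0.53 ± 0.19, adjusted p = 0.0522). Pfkfb4, a HIF-inducible relative of Pfkfb3, stayed between 6.32 and 8.33 CPM in the 4 libraries (0.26 ± 0.24, adjusted p = 0.504). In all 4 genes both Trim28 KO libraries lay above both WT libraries, which held for 28.3% of all genes tested.

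Among the genes of the oxygen sensor, the hydroxylases rose and the HIF subunits did not pass the test. Hif1a had overlapping groups at 97.8 and 112 CPM in WT and 111 and 111 CPM in Trim28 KO (0.08 ± 0.19, adjusted p = 0.827). Epas1, the HIF subunit abundant in endothelium, stood at 64.8 and 58.0 CPM against 44.1 and 54.2 CPM and was not called (-0.32 ± 0.19, adjusted p = 0.267). Egln3, a prolyl hydroxylase that HIF induces and that marks HIF for degradation, stood at 19.1 and 20.9 CPM in WT and at 36.5 and 43.9 CPM in Trim28 KO, a 2.01-fold rise (1.005 ± 0.19, adjusted p = 5.83e-04). Egln1, the main oxygen sensor of most cells, rose from 67.1 and 49.9 CPM to 83.1 and 114 CPM (0.75 ± 0.21, adjusted p = 0.0156). Egln1 was not called without WT 2 (log2 fold change of 0.58, adjusted p = 0.0746) or without Trim28 KO 2 (0.51, adjusted p = 0.222), and its log2 fold change stayed between 0.51 and 1.003 over all settings.

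Of the 8 non-metabolic HIF targets, 1 was called higher by edgeR (2 at an unadjusted p under 0.05, 2 by DESeq2) and 0 lower (0 at an unadjusted p under 0.05, 0 by DESeq2), close to the 8.64% of all genes called higher. Their median log2 fold change was 0.03, 4 lay above and 4 below 0 (5 and 3 with library size alone as the scaling, where Ankrd37 turned to 0.017), and 5 overlapped between genotypes. Over all genes tested, 6993 of 16639 overlapped. The called gene was Higd1a, which encodes a hypoxia-induced protein of the inner mitochondrial membrane and had the largest log2 fold change of the 35. It stood at 83.6 and 71.8 CPM in WT and at 294 and 246 CPM in Trim28 KO, a 3.47-fold rise (1.80 ± 0.21, adjusted p = 1.02e-06). Of its exon bases, 22.5% overlap the predicted gene Gm47112, which itself had 0, 0, 0 and 2 counts. Of the 50-base stretches of Higd1a, 24.4% also occur in transcripts of other genes.

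Bnip3, a mitochondrial receptor for mitophagy, stood at 105 and 87.3 CPM in WT and at 146 and 137 CPM in Trim28 KO. The groups did not overlap, and the gene lay just outside the threshold (0.56 ± 0.20, adjusted p = 0.0515). It was called with relative log expression (RLE) factors, library size alone, no filter, DESeq2, a replicate block and without WT 1 (adjusted p from 0.0249 to 0.0471), and 47.2% of its 50-base stretches occur in other transcripts. Its close relative Bnip3l, which clears mitochondria from maturing red cells, stood at 58.9 and 63.5 CPM against 55.7 and 48.4 CPM (-0.23 ± 0.19, adjusted p = 0.432), in libraries where 6 of 7 erythroid markers fell.

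The other 5 showed no called difference and overlapped between genotypes. Ndrg1, a stress-response gene, stood at 38.5 and 45.0 CPM in WT and at 39.3 and 53.7 CPM in Trim28 KO (0.16 ± 0.20, adjusted p = 0.647). Kdm3a, a histone demethylase, stood at 38.7 and 55.2 CPM against 37.0 and 41.5 CPM (-0.26 ± 0.20, adjusted p = 0.417). Mxi1, an antagonist of MYC, stood at 34.4 and 41.1 CPM against 30.8 and 34.6 CPM (-0.21 ± 0.19, adjusted p = 0.499). Adm, which encodes the vasodilator adrenomedullin, and Ankrd37 were scarce, at 5.25 to 7.98 CPM and 3.45 to 3.81 CPM over the 4 libraries, with log2 fold changes of 0.11 ± 0.26 and -0.05 ± 0.30. The standard errors of these scarce genes were the widest of the 8. Of the exon bases of Ankrd37, 26.4% overlap Lrp2bp and Ufsp2. Ufsp2 itself had 1052 to 1218 counts in the 4 libraries, so the level of Ankrd37 is uncertain.

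Set side by side, the enzymes and the non-metabolic HIF targets lay apart in both Trim28 KO libraries. For each library the median over a group was taken of log2 CPM minus the gene's WT mean. For the enzymes it was -0.05 and 0.05 in WT and 0.60 and 0.71 in Trim28 KO. For the HIF targets it was -0.08 and 0.08 in WT and -0.13 and 0.20 in Trim28 KO, so that the Trim28 KO libraries fell on either side of the WT pair. The difference between the groups was 0.73 in Trim28 KO 1 and 0.52 in Trim28 KO 2, with a spread between libraries of a genotype of 0.11 (SD). The medians of the fitted log2 fold changes differed by 0.60. Without Higd1a the 7 remaining targets had medians of -0.14 and 0.02 in Trim28 KO. With Egln1 and Egln3, which HIF also induces, counted among the targets, 3 of 10 were called and the medians were -0.10 and 0.38. These group values rest on genes picked by name, with earlier results of these data known, and have no test of their own. The 8 targets do not stand for all HIF targets, as 12 of 32 others rose.

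**Figure D4:**
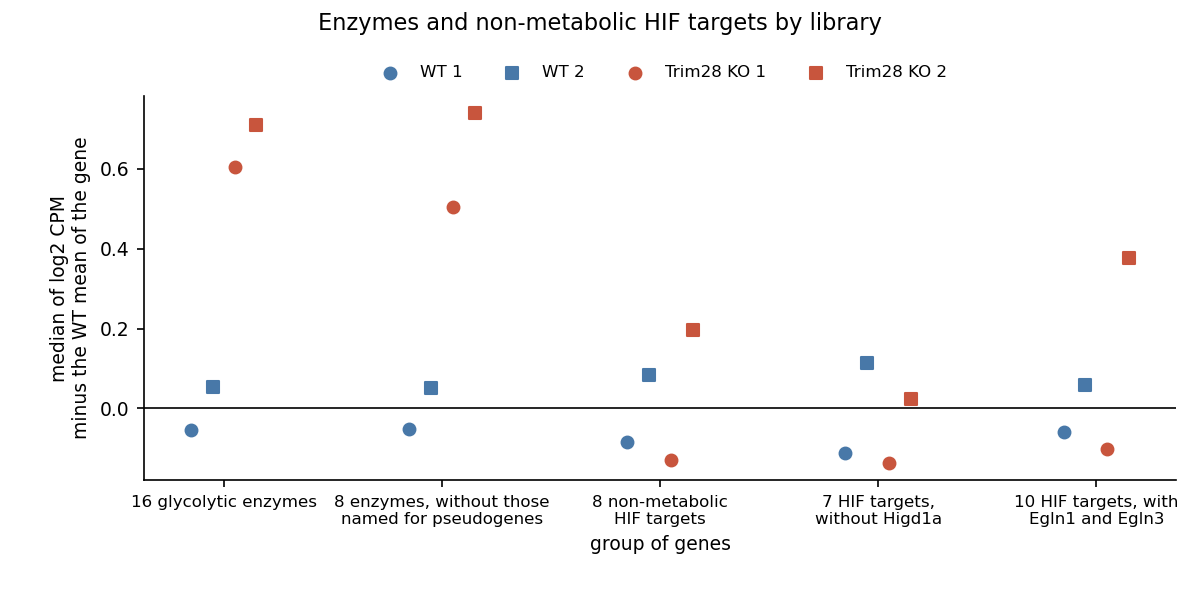
Median over each group of log2 CPM minus the gene's mean over the WT libraries (y axis), for 5 groups of genes (x axis), with 1 point for each library. The enzymes lie at 0.60 and 0.71 in Trim28 KO, whereas the 8 non-metabolic HIF targets lie at -0.13 and 0.20, on both sides of the WT points.

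Neighbouring pathways were read from 6 further lists, also chosen with earlier results of these data known. Among 15 tested genes of glycolysis outside the 35, 3 rose (20%, against 8.64% of all genes tested) and 1 fell, with a median of 0.51. Pdk4, the pyruvate dehydrogenase kinase of fasting and fatty acid use, fell from 18.5 and 23.6 CPM to 5.25 and 5.07 CPM (-2.03 ± 0.22, adjusted p = 4.81e-07). Adpgk, an ADP-dependent glucokinase, the lactate transporter Slc16a1 and Ldhb, the lactate dehydrogenase subunit of oxidative tissue, rose by 0.62 ± 0.19, 0.59 ± 0.19 and 0.60 ± 0.20. None of these 3 rises was called without Trim28 KO 1 (adjusted p = 0.0528, 0.117 and 0.368). Adpgk and Slc16a1 were not called without Trim28 KO 2 either (0.221 and 0.142), Slc16a1 and Ldhb not without WT 2 (0.0681 and 0.0664), and Adpgk not without WT 1 (0.0652).

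Routes that lead away from the chain had 1 called gene each. Of 9 genes that bring pyruvate into the mitochondrion and oxidise it, 1 rose and 0 fell by edgeR (1 lower at an unadjusted p under 0.05, 0 by DESeq2), with a median of 0.15. The riser was Mpc1, a subunit of the pyruvate carrier, at 5.79 and 4.44 CPM in WT and 8.91 and 11.3 CPM in Trim28 KO (0.98 ± 0.25, adjusted p = 0.00690, and 0.114 without Trim28 KO 2). Of 8 genes of the pentose phosphate pathway, 1 rose and 0 fell by edgeR (0 lower at an unadjusted p under 0.05, 0 by DESeq2), with a median of 0.11. It was Taldo1, a transaldolase (0.68 ± 0.20, adjusted p = 0.0194, and 0.100 without WT 1 and 0.194 without Trim28 KO 1). In these 2 lists the shares called higher, 11.1% and 12.5%, lay near the 8.64% of all genes.

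Genes of glycogen storage moved in both directions. Of 11, 3 rose (27.3%, against 8.64% of all genes tested) and 1 fell, with a median of 0.45. Ugp2, which makes UDP-glucose, rose from 69.9 and 79.2 CPM to 270.4 and 180.3 CPM (1.596 ± 0.22, adjusted p = 1.29e-05). Gyg, the glycogenin primer (1.19 ± 0.22, adjusted p = 4.27e-04), and Gys1, the glycogen synthase (0.88 ± 0.19, adjusted p = 0.00157), also rose. Pygl, a glycogen phosphorylase, fell from 65.7 and 88.2 CPM to 28.3 and 42.5 CPM (-1.12 ± 0.22, adjusted p = 0.00103), which was not called without Trim28 KO 1 (p of 0.0617 after adjustment). The other 7 genes of the list were not called. UDP-glucose also feeds the sugars of cartilage proteoglycans.

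The wider HIF genes were mixed. Of 15 genes of the HIF machinery, 1 rose (6.67%) and 2 fell, with a median of -0.02. Hif3a, which encodes a HIF subunit with inhibitory forms, fell from 19.1 and 16.8 CPM to 5.41 and 7.73 CPM (-1.45 ± 0.23, adjusted p = 6.41e-05). Crebbp, a HIF coactivator, fell (-0.68 ± 0.19, adjusted p = 0.0129, and 0.201 without Trim28 KO 1), and Siah2, a ligase that degrades EGLN proteins, rose (0.74 ± 0.20, adjusted p = 0.0141). The Siah2 call was lost without WT 2 (0.135), Trim28 KO 1 (0.153) or Trim28 KO 2 (0.0636). Of 32 other known HIF targets, 12 rose and 3 fell, although the median was 0.06. The share called higher was 37.5%, against 8.64% of all genes tested. Stc2, a secreted stanniocalcin, rose from 26.0 and 23.2 CPM to 109.6 and 102.0 CPM (2.11 ± 0.20, adjusted p = 4.04e-08). Ndufa4l2, a mitochondrial protein induced by HIF, rose by 1.30 ± 0.22 (adjusted p = 1.40e-04). Car12, a carbonic anhydrase, fell (-1.73 ± 0.20, adjusted p = 1.28e-06), as did Igfbp3, which binds insulin-like growth factors (-1.26 ± 0.22, adjusted p = 2.30e-04). Vegfa, the HIF-driven signal to blood vessels, named after its values were seen, stood at 166 and 162 CPM against 104 and 139 CPM and was not called (-0.43, adjusted p = 0.152).

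**Figure D5:**
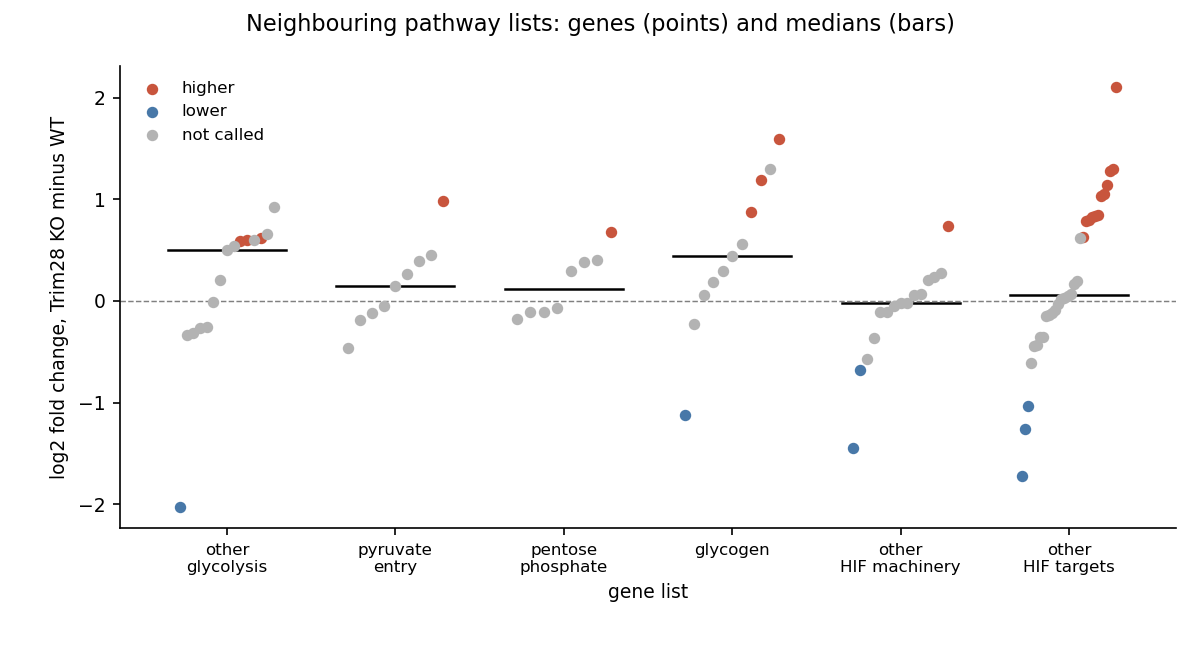
Log2 fold change of Trim28 KO minus WT (y axis) for every tested gene of 6 neighbouring lists (x axis), each point 1 gene and each bar the list's median. Red genes are called higher, blue lower and grey not called; the list of other HIF targets holds 12 red and 3 blue points around a median of 0.06.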

How the data were processed

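Rib cartilage RNA of 2 WT and 2 Trim28 KO libraries was analysed, grouped by the labels' titles. The deposited values are raw counts. Per the file headers, the authors ran featureCounts 1.6.4 on read pairs, summing fragments over the exons of each gene name in GENCODE release M23 (mm10). The recorded command set neither strand nor the use of reads that map or overlap several times. Which aligner was used is not given in the sources used here. A gene and an antisense partner therefore cannot be told apart, and genes with close copies lose reads.

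Genes were kept by edgeR's filterByExpr (16639 of 55228), scaled by TMM and tested in edgeR 4.0.16 under R 4.3.3 with glmQLFit (robust) and glmQLFTest, the quasi-likelihood test, genotype being the one term, with Benjamini-Hochberg adjustment over all genes tested and a threshold of 0.05. "Rose", "fell" and "called" refer to it. Standard errors are the log2 fold change divided by the square root of F. Shared stretches of 50 bases and overlaps came from GENCODE M21 on GRCm38, the assembly of mm10. The steps were tested on simulated counts with 200 changed genes. They recovered 61% of 2-fold and 93% of 4-fold changes, and 16 of 170 calls were false, a larger share than the threshold of 0.05. A gene that was not called may therefore still differ, and a call near the threshold may be false. Counts give precision only down to counting error.

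The named genes were Trim28, all 35 members, for each pathway list at most 5 genes ranked by p-value, and up to 3 of the most abundant genes of each marker list; not all of these are printed. The members, lists and named genes were chosen with earlier results of these data known. Alternatives were RLE factors, library size alone, no filter, a stricter filter (at least 5 CPM, 2 libraries), limma-voom (limma 3.58.1), DESeq2 1.42.0, a replicate block and leaving out each library.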

Additional observations from a re-analysis of the deposited data

How the results depend on the processing

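Of the 15 members called higher, all stayed called with RLE factors, library size alone, no filter and the replicate block, and 14 (without Gapdh) with the stricter filter, DESeq2 and limma-voom. A fit without 1 library has an arm of 1, which is assumed to vary like the other genotype. Over all genes, 1438 were called higher with all 4 libraries and 702 without Trim28 KO 1, 906 without Trim28 KO 2, 1288 without WT 2 and 1442 without WT 1. No fit without 1 library kept all 15 calls, and no member turned to a lower call. Without WT 1, for example, Gapdh and Pfkfb3 lost their calls while Tpi1 and Bnip3 gained one. Ankrd37 could not be fitted under the stricter filter, which it did not pass. Over all genes, 572 to 1406 were called lower when 1 library was left out. The enzymes called higher ranged from 6 to 9 without 1 library and numbered 4 among the 8 without pseudogene-rich genes, a choice made after seeing the data. Without WT 1 their median log2 fold change was 0.77 (0.60 to 0.77 over the 4 libraries left out).

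The non-metabolic HIF targets called higher numbered 2 with RLE factors, library size alone, no filter, DESeq2, the replicate block and without WT 1 (1 to 2 over the 4 libraries left out), through Bnip3, and 3 with Egln1 and Egln3 added. The difference between the medians of both groups ran from 0.47 to 0.78 without 1 library. The replicate numbers share no stated origin (correlation of same-numbered deviations of -0.08), so the block is only an alternative fit. It changed no other call of a member than those of Bnip3 and Pdk3.

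With no filter, 5 genes of other glycolysis and 5 of glycogen storage were called higher. Without 1 library, the lists had 0 to 3 higher in other glycolysis, 0 to 1 in pyruvate entry, 0 to 1 in the pentose phosphate pathway and 0 to 1 in HIF machinery, 0 to 1 lower in glycogen storage and 1 to 2 lower in HIF machinery.

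Without the length correction the Pfkp share rose by 5.70 percentage points (3.04 with it) and the Eno2 share by 2.37 (2.69 with it). Signs that turned were all in uncalled genes. Ankrd37 stood at 0.017 with library size alone. Without 1 library, Aldoc ran from -0.011 to 0.19, Ankrd37 from -0.12 to 0.031, Ndrg1 from -0.082 to 0.37, Adm from -0.22 to 0.39 and Kdm3a from -0.47 to 0.048. The cause of these changes was not tested.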
